A study of Mus musculus with 2 samples.

Results

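Glycolysis and the carriers that bring glucose in and take lactate out were followed step by step through 37 genes: glucose and fructose carriers, the glycolytic enzymes with their isoforms, lactate carriers, the regulatory PFKFB enzymes, fructose 1,6-bisphosphatases, Pgm2 and the pyruvate dehydrogenase kinase gene Pdk1. The members were chosen as the probe sets whose gene symbol in the array's annotation is on this list. Of the 37 genes, 34 had at least 1 probe set under a single symbol, 70 probe sets in all out of 45101. Gpi1, Pfkfb1 and Eno1 had no such probe set in the annotation used here, so glucose phosphate isomerase and the main enolase were not measured. RNA came from colon mucosal scrapings of C57BL/6 mice, 6 to 8 weeks old by the sample labels and 7 weeks old by the design text. All animals had taken 3% DSS (dextran sulfate sodium), which injures the lining of the colon, over 3 days. Hif-2αΔIE mice lack Epas1, the gene of the hypoxia-inducible factor subunit HIF-2α, in the intestinal epithelium, and Hif-2αF/F mice carry the conditional alleles without the deletion. This reading of the labels rests on knowledge of the mouse model, and the promoter that drives Cre recombinase is not named in the labels. The design text counts 5 Hif-2αΔIE and 6 Hif-2αF/F mice, but there was 1 array per genotype, and whether RNA was pooled is not stated. The genotypes could therefore not be tested against each other, and each difference compares these 2 arrays only.

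Glycolysis splits glucose into pyruvate, and lactate dehydrogenase reduces pyruvate to lactate, which leaves the cell through monocarboxylate carriers. Most steps are catalysed by several isoforms encoded by separate genes and expressed in different tissues. Many of these genes are known targets of hypoxia-inducible factors, HIF-1α above all, and hypoxia is a feature of the inflamed colonic mucosa. In the colon, surface epithelial cells burn mainly butyrate, whereas activated neutrophils and macrophages rely on glycolysis.

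Levels are log2 values from RMA (robust multi-array averaging), and each difference is Hif-2αΔIE minus Hif-2αF/F on that scale. Each gene was represented by its brightest probe set, judged by the mean of the 2 arrays, and it reached the expression filter where the higher array was at or above 6.11, the median of all probe set means. Of 18194 genes, 11900 reached the filter. Cre recombinase sequence, read by 4 control probe sets, lay between 7.86 and 10.01 on the Hif-2αΔIE array and between 2.92 and 4.22 on the Hif-2αF/F array. The brighter Epas1 probe set read 11.77 on the Hif-2αΔIE array and 11.90 on the Hif-2αF/F array. Its position relative to the deleted part was not determined, so it does not check the deletion. Colonocyte markers were high on both arrays, for example Car1 at 14.40 on the Hif-2αΔIE array and 14.22 on the Hif-2αF/F array. In tissue RNA, fewer cells of a type and less RNA per cell cannot be told apart.

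Most members differed little between the arrays, as did most genes, and 6 differed at least 2-fold. Of the 34 measured members, 31 reached the filter, 28 of them on both arrays and 3 (Slc2a5, Fbp1 and Slc16a7) on the Hif-2αΔIE array alone. Lower on the Hif-2αΔIE array by at least 2-fold were 4 members, Eno3, Slc2a3, Slc16a3 and Pfkfb3, or 12.9% of the 31, where 5.3% of all genes reaching the filter were lower by that much. Higher by at least 2-fold were Slc16a7 and Fbp1, where 1.15% of all genes were. Both passed the filter only through the array on which they were high, so the second count describes them and supports nothing. Among the 28 members above the filter on both arrays, 4 were lower and 0 higher by 2-fold, against 4.28% and 1.03% of 11281 genes. The median difference over the 31 members was -0.14, beside 0.02 over all genes, with 17 members below 0 and 14 above, where 46.5% of all genes were below 0. Of the 31, 23 differed by less than 0.5 on the log2 scale. The outermost of these 23 were Pkm at -0.47 and Slc2a5 at 0.49. Of all genes reaching the filter, 13.1% had a lower difference than Pkm and 93.6% a lower one than Slc2a5. Small differences were thus common over all genes and do not set the members apart.

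**Figure D1:**
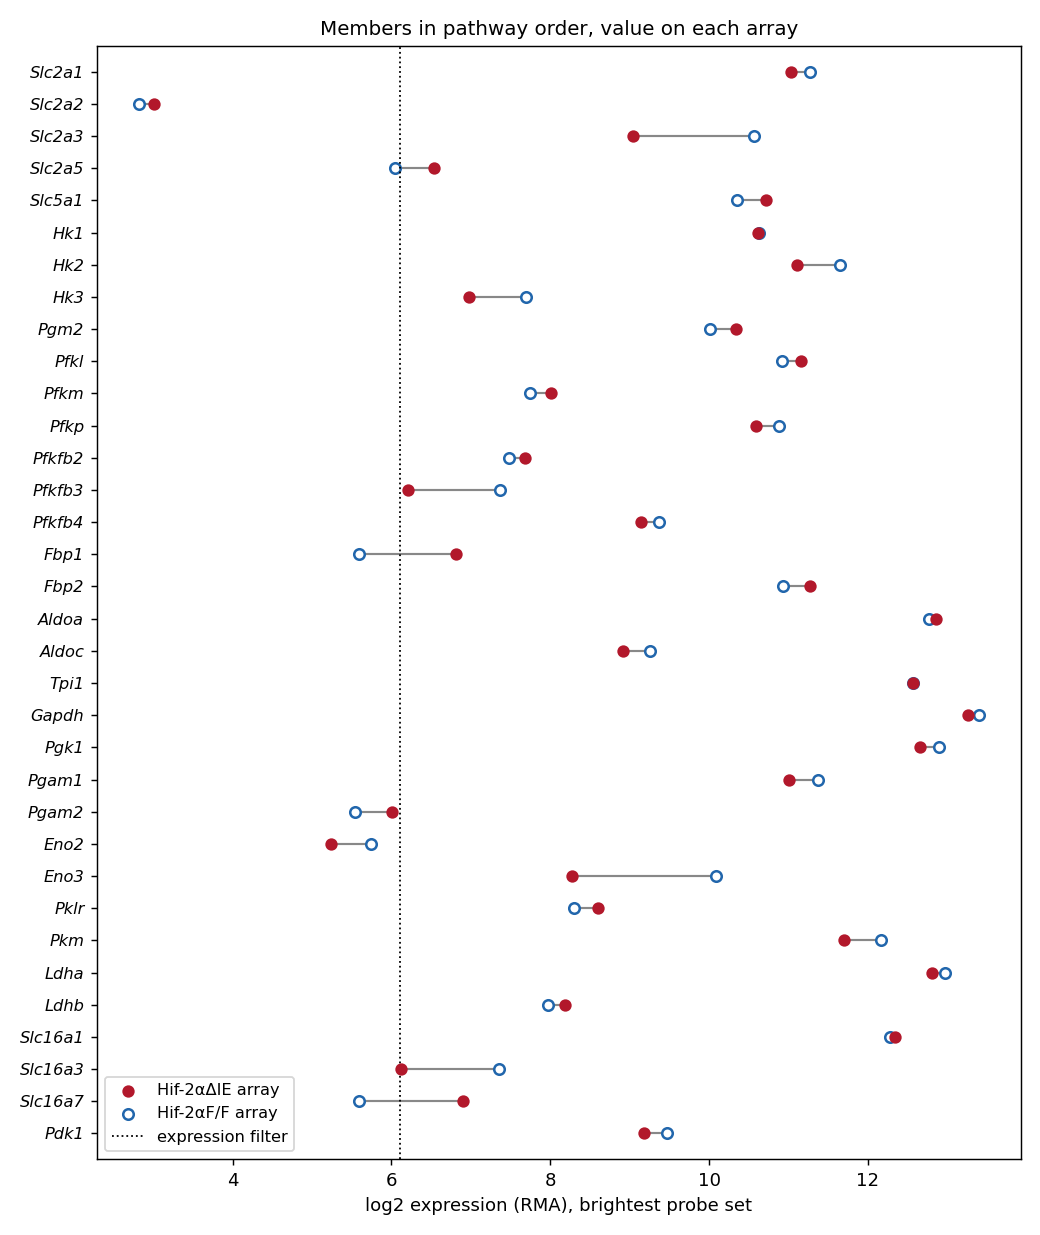
Log2 RMA expression of the brightest probe set of each of the 34 measured members, in pathway order from top to bottom; filled red points are the Hif-2αΔIE array, open blue points the Hif-2αF/F array, and the dotted line is the expression filter at 6.11. The long bars belong to Slc2a3, Eno3, Pfkfb3, Slc16a3, Fbp1 and Slc16a7, and Tpi1 and Hk1 coincide on both arrays.

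Among the carriers that admit hexoses, GLUT3 stood apart. Its gene Slc2a3, a high-affinity glucose carrier of neurons and white blood cells, read 9.04 on the Hif-2αΔIE array and 10.57 on the Hif-2αF/F array, 2.89-fold lower. A second Slc2a3 probe set above the filter read 6.78 on the Hif-2αΔIE array and 8.16 on the Hif-2αF/F array, a difference of -1.38. Both belong to classes that can match more than 1 transcript, and the remaining 2 probe sets of the gene lay between 3.62 and 3.79 on both arrays, well below the filter, with differences of -0.06 and 0.15. GLUT1, the widespread basal carrier encoded by Slc2a1, differed far less, at 11.03 on the Hif-2αΔIE array and 11.27 on the Hif-2αF/F array, and its 3 probe sets ranged only from -0.23 to -0.18. Slc5a1, which encodes the sodium-coupled glucose carrier SGLT1 of the brush border, was higher by 0.37 and 0.38 in its 2 probe sets (10.72 on the Hif-2αΔIE array and 10.35 on the Hif-2αF/F array for the brighter). The fructose carrier gene Slc2a5 (GLUT5) read 6.54 on the Hif-2αΔIE array and 6.05, below the filter, on the Hif-2αF/F array. GLUT2, encoded by Slc2a2 and known from small intestine and liver, stayed below the filter at 3.01 on the Hif-2αΔIE array and 2.82 on the Hif-2αF/F array. The sign thus differed between carriers: Slc2a1 and Slc2a3 were lower, and Slc5a1 and Slc2a5 higher, of which only Slc2a3 passed 2-fold.

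All 3 hexokinase genes, whose enzymes trap glucose inside the cell as glucose 6-phosphate, were below 0, none by 2-fold. Hk1, the housekeeping form, hardly differed, with 10.62 on the Hif-2αΔIE array and 10.63 on the Hif-2αF/F array. Hk2, the insulin- and hypoxia-responsive form, read 11.11 on the Hif-2αΔIE array and 11.65 on the Hif-2αF/F array, 1.45-fold lower. Hk3, which is expressed mainly in myeloid cells, showed the widest gap of the 3: 6.97 on the Hif-2αΔIE array and 7.69 on the Hif-2αF/F array, 1.65-fold lower, and its dimmer probe set differed by -0.99. It was the member nearest to the 2-fold threshold from below. Pgm2, the gene of a phosphoglucomutase-like enzyme that acts on sugar phosphates, was higher by 0.32 (10.34 on the Hif-2αΔIE array and 10.02 on the Hif-2αF/F array).

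Phosphofructokinase commits glucose to glycolysis, and its 3 subunit genes lay on both sides of 0, each by less than 0.5. The liver-type gene Pfkl read 11.15 on the Hif-2αΔIE array and 10.91 on the Hif-2αF/F array, and all 3 of its probe sets were above 0, from 0.06 to 0.24. The muscle-type gene Pfkm read 8.01 on the Hif-2αΔIE array and 7.75 on the Hif-2αF/F array. The platelet-type gene Pfkp was lower, at 10.59 on the Hif-2αΔIE array and 10.88 on the Hif-2αF/F array, with its 3 probe sets between -0.29 and -0.21. Liver- and muscle-type subunits were therefore slightly higher and the platelet type slightly lower.

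The regulatory layer above this step differed more. PFKFB enzymes make and break fructose 2,6-bisphosphate, the main allosteric activator of phosphofructokinase, and PFKFB3 is the form with the strongest bias towards making it. Pfkfb3 read 6.21 on the Hif-2αΔIE array and 7.37 on the Hif-2αF/F array, 2.24-fold lower. Its value on the Hif-2αΔIE array lies just above the filter, where RMA compresses differences. The gene's other probe set gave 3.97 on both arrays, identical to every deposited digit, so the difference rests on 1 probe set. Pfkfb2, the heart-type form, was 0.21 higher (7.69 on the Hif-2αΔIE array and 7.48 on the Hif-2αF/F array), and Pfkfb4, another hypoxia-responsive form, 0.22 lower on the log2 scale, at 9.15 on the Hif-2αΔIE array and 9.36 on the Hif-2αF/F array. Fructose 1,6-bisphosphatase runs the opposite reaction, in gluconeogenesis, and both of its genes were above 0. Fbp1, the liver and kidney form, read 6.82 on the Hif-2αΔIE array and 5.59, below the filter, on the Hif-2αF/F array. Fbp2, known as the muscle form, read 11.27 on the Hif-2αΔIE array and 10.93 on the Hif-2αF/F array, a difference of 0.35.

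The reactions from aldolase to phosphoglycerate mutase differed by less than 0.5 in every member measured. Aldoa, the muscle and housekeeping aldolase, read 12.86 on the Hif-2αΔIE array and 12.77 on the Hif-2αF/F array, and its 5 probe sets ranged from -0.05 to 0.09. Tpi1, the gene of triose phosphate isomerase, read 12.57 on both arrays. Gapdh, measured here only by its 3 control probe sets, gave 13.26 on the Hif-2αΔIE array and 13.39 on the Hif-2αF/F array with the brightest, and differences between -0.14 and -0.08 over all 3. The phosphoglycerate kinase gene Pgk1 differed by -0.24, with 12.65 on the Hif-2αΔIE array and 12.89 on the Hif-2αF/F array. The mutase gene Pgam1 differed by -0.36, at 11.01 on the Hif-2αΔIE array and 11.37 on the Hif-2αF/F array. Aldoc, the brain-type aldolase, was lower by a similar amount, with 8.92 on the Hif-2αΔIE array and 9.25 on the Hif-2αF/F array. Pgam2, the muscle-type mutase, did not reach the filter (6.01 on the Hif-2αΔIE array and 5.54 on the Hif-2αF/F array).

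The widest difference of any member was in enolase, which turns 2-phosphoglycerate into phosphoenolpyruvate. Eno3, the beta isoform best known from skeletal muscle, read 8.27 on the Hif-2αΔIE array and 10.08 on the Hif-2αF/F array, 3.52-fold lower. Only 0.655% of the genes reaching the filter had a lower difference. A single probe set measured it. Eno2, the neuronal form, was below the filter on both arrays (5.24 on the Hif-2αΔIE array and 5.74 on the Hif-2αF/F array). Skeletal muscle markers differed in the other direction: of 12 markers measured, 10 reached the filter, all 10 were higher on the Hif-2αΔIE array, and their median difference was 1.27. Mylpf, a fast muscle myosin light chain gene, read 8.46 on the Hif-2αΔIE array and 6.37 on the Hif-2αF/F array.

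Pyruvate kinase and lactate dehydrogenase each had one isoform on either side of 0. Pkm, the muscle-type gene whose M2 splice form prevails in proliferating cells and leukocytes, read 11.70 on the Hif-2αΔIE array and 12.16 on the Hif-2αF/F array, 1.38-fold lower; its single probe set does not separate the splice forms here. Pklr, the gene of the liver and red cell pyruvate kinase, read 8.60 on the Hif-2αΔIE array and 8.29 on the Hif-2αF/F array, with 3 probe sets from 0.13 to 0.42. Ldha, whose product favours lactate formation, differed by -0.16 (12.80 on the Hif-2αΔIE array and 12.97 on the Hif-2αF/F array). Ldhb, the heart-type subunit, was above 0 in all 4 probe sets, from 0.17 to 0.26, and read 8.19 on the Hif-2αΔIE array and 7.97 on the Hif-2αF/F array with the brightest. Pdk1 encodes a kinase that switches off pyruvate dehydrogenase and so keeps pyruvate out of the mitochondrion. It was lower by 0.29, at 9.18 on the Hif-2αΔIE array and 9.48 on the Hif-2αF/F array, and the 3 of its probe sets that passed the filter gave -0.32 to -0.09.

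The 3 lactate carrier genes lay on both sides of 0. Slc16a3, which encodes MCT4, the lactate exporter of highly glycolytic cells, read 6.12 on the Hif-2αΔIE array and 7.36 on the Hif-2αF/F array, 2.35-fold lower, with the first value at the filter itself. Slc16a7, which encodes MCT2, a high-affinity importer of lactate and pyruvate, read 6.90 on the Hif-2αΔIE array and 5.60, below the filter, on the Hif-2αF/F array. Slc16a1 encodes MCT1, the carrier through which the colonic epithelium takes up butyrate, and it differed by 0.06, at 12.34 on the Hif-2αΔIE array and 12.28 on the Hif-2αF/F array. MCT4 and MCT2 transcripts were each measured by 1 probe set.

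**Figure D2:**
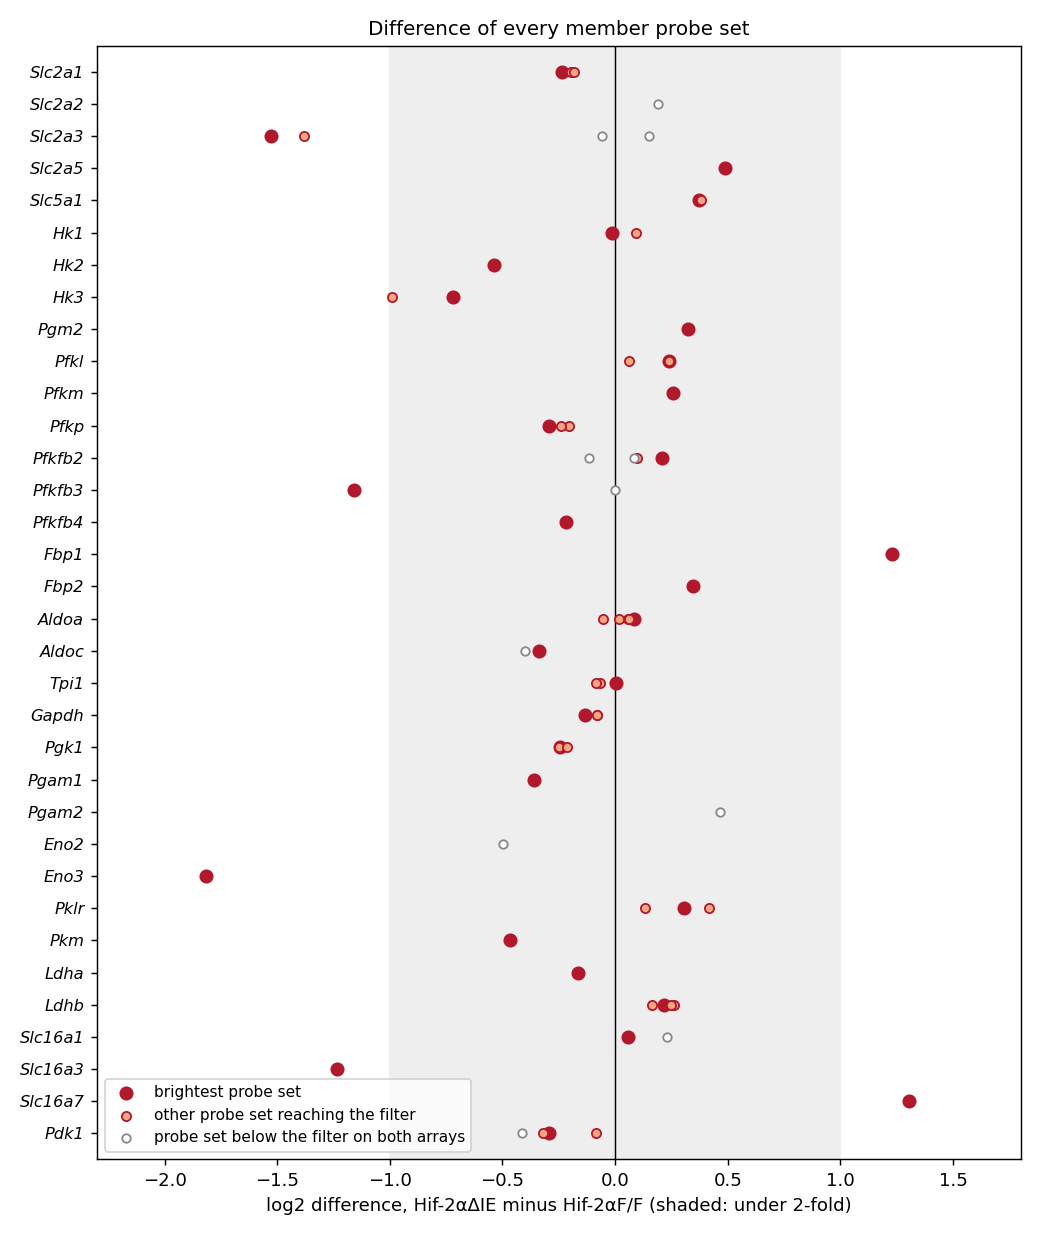
Log2 difference, Hif-2αΔIE minus Hif-2αF/F, of all 70 member probe sets, with 1 row per gene in pathway order; large red points are the brightest probe set, small orange points other probe sets reaching the filter, open grey points probe sets below the filter on both arrays, and the shaded band is under 2-fold. Eno3, Slc2a3, Slc16a3 and Pfkfb3 lie left of the band, Fbp1 and Slc16a7 right of it, and probe sets of one gene that reach the filter lie close together.

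Probe sets give the only repeat measurement in these data, and they repeat the probing of a transcript, not the mouse or the array. In 15 members at least 2 probe sets passed the filter. Their 2 brightest gave differences a median of 0.05 apart and at most 0.27 apart, in Hk3. Over the 5111 genes with such a pair the median gap was 0.10, and 95% of the gaps were within 0.41. Differences of the other 16 members above the filter rest on 1 probe set each, and these include Eno3, Pfkfb3, Slc16a3, Slc16a7 and Fbp1. Of the 59 member probe sets that reached the filter, 32 were below 0 and 27 above.

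Isoforms of a step can be set side by side by the gap between their log2 differences. Among members above the filter on both arrays, Pfkfb3 minus Pfkfb2 came to -1.37, Slc2a3 minus Slc2a1 to -1.29 and Slc16a3 minus Slc16a1 to -1.29. Smaller gaps were those of Pkm minus Pklr at -0.77, Hk3 minus Hk1 at -0.70, Pfkp minus Pfkl at -0.53, Aldoc minus Aldoa at -0.42 and Ldha minus Ldhb at -0.38. The gap of Ldha and Ldhb is within the 0.41 that held 95% of gaps between probe sets of one gene, and that of Aldoc and Aldoa lies just beyond it. With 1 array per genotype, none of these gaps could be tested, and they do not say which of a pair is the more abundant.

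**Figure D3:**
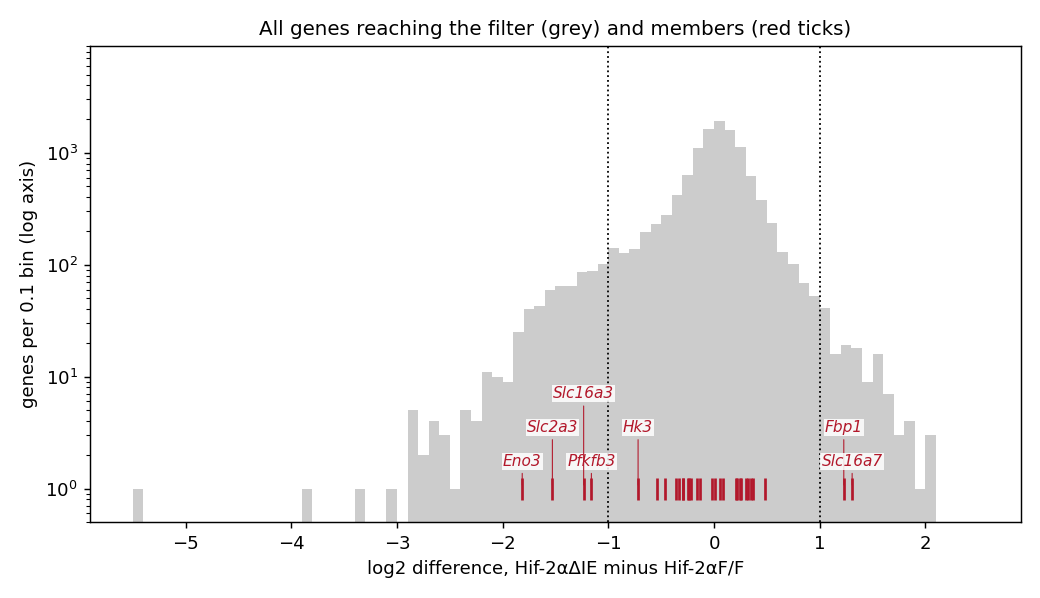
Number of genes per bin of 0.1 in log2 difference, Hif-2αΔIE minus Hif-2αF/F, for the 11900 genes reaching the filter (grey, log axis); red ticks are the 31 members reaching it, and dotted lines mark 2-fold. Most members sit in the central bulk, Eno3, Slc2a3, Slc16a3 and Pfkfb3 in the left shoulder, and Fbp1 and Slc16a7 in the sparser right one.

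Because HIF complexes bind a short core motif, the promoters of the members were searched for ACGTG and for GCGTG on both strands, from 250 bases before to 50 bases after each transcription start in RefSeq (build GRCm38.p6). The palindrome CACGTG counts as a match of the first motif on each strand. RefSeq's table gave 54 promoters of 35 members, Slc2a3 and Slc16a7 not among them. At least 1 match stood in 68.5% of the 54, where 43.8% of all 32851 promoters held one. ACGTG stood in 42.6%, against 19.6% of all, and GCGTG in 46.3%, against 32.4% of all. Both motifs contain the letters CG, and the shares were not adjusted for how rich in CG a promoter is. Some windows of one gene overlap, and the unmeasured Eno1, Gpi1 and Pfkfb1 are included. What these gaps between shares stem from was not tested. The 250 bases before the start are printed for the members with a promoter in the table that differed at least 2-fold. They are also printed for Pgk1 and for the first promoter of Ldha, 2 known hypoxia targets that differed by -0.24 and -0.16. The second Ldha promoter is not printed. Motif letters are in capitals, 5′ to 3′ along the gene:
Eno3, chr11:70656926-70657175, plus strand: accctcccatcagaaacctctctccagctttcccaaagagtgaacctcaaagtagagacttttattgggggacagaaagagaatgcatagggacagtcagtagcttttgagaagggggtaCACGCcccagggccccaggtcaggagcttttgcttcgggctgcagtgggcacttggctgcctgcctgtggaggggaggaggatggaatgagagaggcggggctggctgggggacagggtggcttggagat
Slc16a3, chr11:120948817-120949066, plus strand: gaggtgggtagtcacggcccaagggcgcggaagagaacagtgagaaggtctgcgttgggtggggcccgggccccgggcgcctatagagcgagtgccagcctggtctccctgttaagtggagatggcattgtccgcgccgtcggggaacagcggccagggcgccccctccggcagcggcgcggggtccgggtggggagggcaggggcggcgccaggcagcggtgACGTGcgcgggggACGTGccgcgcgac
Pfkfb3, chr2:11553930-11554179, minus strand: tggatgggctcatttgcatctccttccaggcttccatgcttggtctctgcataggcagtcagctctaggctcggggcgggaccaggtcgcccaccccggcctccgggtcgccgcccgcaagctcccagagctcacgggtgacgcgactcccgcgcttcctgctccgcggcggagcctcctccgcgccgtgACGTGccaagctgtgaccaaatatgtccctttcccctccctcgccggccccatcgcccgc
Pfkfb3, chr2:11502091-11502340, minus strand: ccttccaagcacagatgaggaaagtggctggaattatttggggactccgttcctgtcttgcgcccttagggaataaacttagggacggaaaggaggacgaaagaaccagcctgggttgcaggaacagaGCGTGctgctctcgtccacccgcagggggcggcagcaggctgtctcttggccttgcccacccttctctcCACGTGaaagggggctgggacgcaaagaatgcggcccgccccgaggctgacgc
Fbp1, chr13:62888283-62888532, minus strand: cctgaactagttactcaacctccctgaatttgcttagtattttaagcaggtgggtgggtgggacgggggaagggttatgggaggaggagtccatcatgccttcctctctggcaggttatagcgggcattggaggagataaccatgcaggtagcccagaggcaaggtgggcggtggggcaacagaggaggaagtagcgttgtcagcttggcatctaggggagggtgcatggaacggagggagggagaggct
Pgk1, chrX:106186850-106187099, plus strand: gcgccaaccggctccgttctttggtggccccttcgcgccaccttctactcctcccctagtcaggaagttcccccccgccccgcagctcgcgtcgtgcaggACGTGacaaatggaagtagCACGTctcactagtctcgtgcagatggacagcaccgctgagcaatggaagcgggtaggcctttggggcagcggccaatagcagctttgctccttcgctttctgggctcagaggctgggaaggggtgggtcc
Ldha, chr7:46845554-46845803, plus strand: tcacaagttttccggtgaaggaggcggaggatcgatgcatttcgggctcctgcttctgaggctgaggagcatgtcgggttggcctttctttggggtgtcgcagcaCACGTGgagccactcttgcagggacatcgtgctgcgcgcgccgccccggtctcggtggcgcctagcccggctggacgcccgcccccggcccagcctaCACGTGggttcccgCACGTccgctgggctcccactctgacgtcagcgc
Matches stood in promoters of members on both sides of 0. Slc16a3 had 2 ACGTG cores, 27 and 14 bases before its start, and Pfkfb3 had 1 match in this stretch of one promoter and 3 in that of the other. Eno3, with the lowest difference, had 1 GCGTG match, and Fbp1 had 0. The first Ldha promoter carried 5 matches before the start and 7 in the whole window, each CACGTG palindrome being counted on both strands. The second Ldha promoter carried 1 before the start and 2 in the whole window. Ldha differed by -0.16. Of the members reaching the filter, 25 had a match in at least 1 promoter, 16 of them lower and 9 higher, with a median of -0.22. Of all 31 members reaching it, 17 were lower, and of all genes 46.5% were. The same split was not made for all genes with a match, so this count ties no match to a direction. The 4 members without any match were Slc2a5, Fbp1, Pklr and Tpi1. Of these, Slc2a5 and Fbp1 passed the filter only through the Hif-2αΔIE array, on which they were high, and Pklr and Tpi1 differed by 0.30 and 0.01, so the members with and without a match are not set against each other. A match is a description of the letters in this window, and no match says nothing of binding elsewhere.

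**Figure D4:**
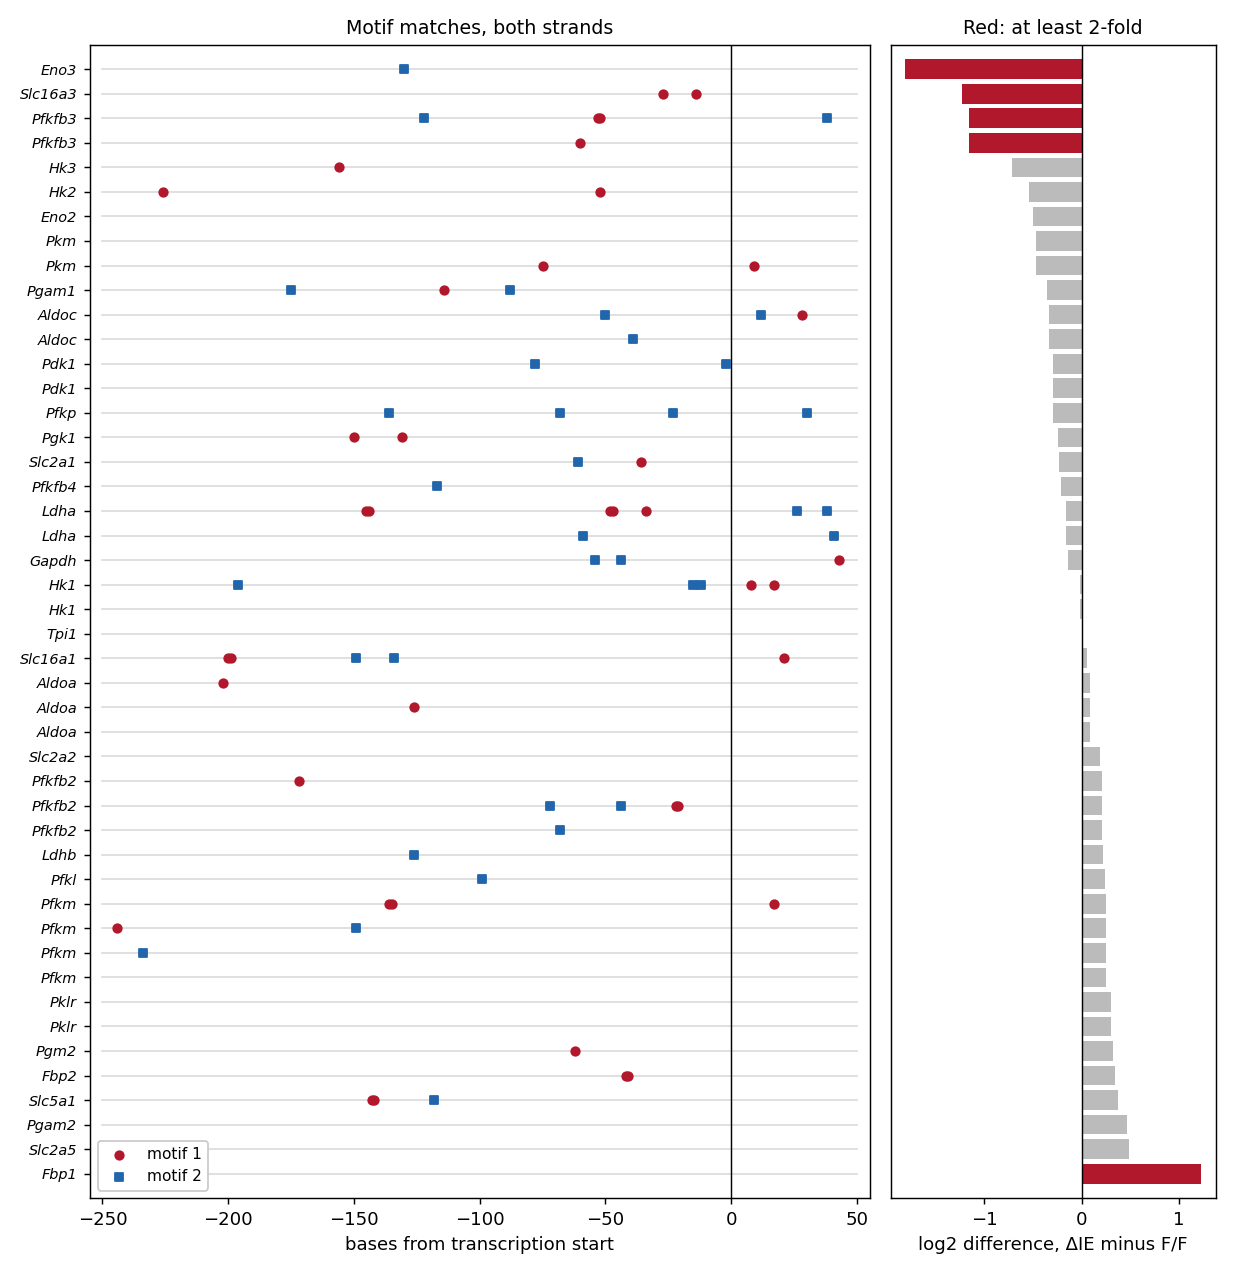
Left, positions of ACGTG (motif 1, red circles) and GCGTG (motif 2, blue squares) on either strand in each promoter of the measured members, in bases from the transcription start, with 1 row per promoter ordered by the gene's difference; right, that log2 difference, Hif-2αΔIE minus Hif-2αF/F, in red where it is at least 2-fold. Matches occur from Eno3 at -1.81 down to Slc5a1 at 0.37, and none in the row of Fbp1 at 1.23.

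Genes around the pathway leaned the other way from the members. Of 95 further genes in 7 lists that had a probe set, 84 reached the filter, 55 of them above 0 and 29 below, with a median of 0.17; 52.7% of all genes were above 0. At least 2-fold lower were 3 (3.57%) and higher were 2 (2.38%), beside 5.3% and 1.15% of all genes. Regulators of glycolysis were split evenly, 8 above 0 and 8 below, and of the pentose phosphate genes 4 were above 0 and 5 below. Among further sugar carriers, 8 of 10 were above 0, and Slc2a10 (GLUT10) read 7.80 on the Hif-2αΔIE array and 6.49 on the Hif-2αF/F array, a difference of 1.31. Among further enzymes of hexose metabolism, 14 of 19 were above 0. Hkdc1, a gene of a hexokinase-like protein, read 10.53 on the Hif-2αΔIE array and 9.19 on the Hif-2αF/F array, a difference of 1.34, while the 3 hexokinase members were all below 0. Pck1, the gluconeogenic carboxykinase, was higher by 0.94 and Gpd1, a glycerol phosphate dehydrogenase, by 0.69, while pyruvate carboxylase (Pcx) differed by -0.73. Pck1 and Gpd1 are also strongly expressed in fat. Adipocyte markers were higher as well, with 5 of 5 above 0 and a median of 0.79, and their part in the values of these 2 genes was not tested.

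Genes of pyruvate entry into mitochondria lay mostly above 0: 10 of 12 genes of the pyruvate dehydrogenase complex, its regulators and the mitochondrial carrier were above 0, none at 2-fold, with a median of 0.26. Pdha1 and Pdhb, the subunits of its first enzyme, differed by 0.23 and 0.29, and Pdk4, a kinase induced by fasting and fatty acids, by 0.61 in place of the -0.29 of Pdk1. The pentose phosphate genes were flat, with a median of -0.01 over 9 genes. Of the lactate-related genes, Emb (embigin, the chaperone of MCT2) was lower, at 8.25 on the Hif-2αΔIE array and 9.68 on the Hif-2αF/F array, whereas Slc16a7 itself was higher. Bsg (basigin, the chaperone of MCT1 and MCT4) differed by 0.29 and Slc16a5, another monocarboxylate carrier, by 0.83. Pygl, the liver and leukocyte glycogen phosphorylase, read 8.10 on the Hif-2αΔIE array and 9.45 on the Hif-2αF/F array. Of the regulators, Egln3, a HIF prolyl hydroxylase and hypoxia target, read 9.66 on the Hif-2αΔIE array and 11.39 on the Hif-2αF/F array, a 3.33-fold difference. Hif1a read 11.41 on the Hif-2αΔIE array and 12.38 on the Hif-2αF/F array, and Mlxipl, the glucose-sensing factor ChREBP, differed by 0.85.

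Markers of several cell types differed on the same arrays, among them cells in which some of the lower members are known to be expressed. All 11 neutrophil markers reaching the filter were lower, 9 by 2-fold, with a median of -1.56. The widest difference was that of Camp, the cathelicidin gene, at 8.21 on the Hif-2αΔIE array and 10.08 on the Hif-2αF/F array. The summed signal of the 11 on the linear scale was 27920 on the Hif-2αΔIE array and 53994 on the Hif-2αF/F array; Mpo and Elane, markers of immature neutrophils, were below the filter on both. All 14 macrophage and monocyte markers were lower, with a median of -1.12 and summed signals of 8540 on the Hif-2αΔIE array and 18487 on the Hif-2αF/F array. Itgam, among the 14, reached the filter only on the Hif-2αF/F array, and with the filter on both arrays the median was -1.10. The neutrophil and macrophage lists span -1.87 to -0.26, and 11 of the 31 members reaching the filter lie in that wide range. They are Eno3, Slc2a3, Slc16a3, Pfkfb3, Hk3, Hk2, Pkm, Pgam1, Aldoc, Pdk1 and Pfkp. Of all genes reaching the filter, 18.7% had a lower difference than Pfkp, the nearest of the 11 to 0, and 0.655% a lower one than Eno3, the farthest. The range itself comes from markers on the same 2 arrays, and many genes outside the lists lie in it. Lying within the range therefore names no cell type. Lists of other cells were lower on the same array. All 7 B cell markers were, 6 by 2-fold, with a median of -1.73, and Ms4a1 (CD20) read 7.38 on the Hif-2αΔIE array and 10.06 on the Hif-2αF/F array. Cr2, Fcer2a and Pax5 reached the filter only on the Hif-2αF/F array, on which they were high. With the filter on both arrays, 4 B cell markers were 2-fold lower, and the list median was -1.81. Endothelial and fibroblast markers, 8 each and all below 0, had medians of -0.72 and -0.71. Tie1, an endothelial marker, reached the filter only on the Hif-2αF/F array, and with the filter on both arrays the endothelial median was -0.85. The 4 T cell markers reaching the filter had a median of -0.37. Squamous epithelium markers had a median of -1.36, with Krt13 at -1.71. Posterior Hox genes, which mark the distal end of the gut, had a median of -1.49, and Hoxb13 read 7.94 on the Hif-2αΔIE array and 10.76 on the Hif-2αF/F array. Enteroendocrine markers had a median of 1.09, although Insl5, a hormone gene of the distal colon, differed by -2.73 and Pyy by -0.58. Of the 8 goblet cell markers 7 were above 0, with a median of 0.21 and Spdef at 1.43, while smooth muscle markers had a median of 0.02. Of the 8 colonocyte markers, 5 were above 0 and 3 below, and the median was 0.06. The widest differences in that list were those of Slc9a3 at 1.47 and Saa1 at -0.97. General epithelial markers had a median of 0.09 over 9 genes, with 6 above 0 and 3 below. Among them only Cdx2 passed 2-fold, with a difference of 1.02. The part of these cell types and of position along the gut in the member differences was not tested.

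Members of the gut and liver type were set beside small intestine and liver markers. Fabp2, Apob and Alpi were higher by 0.55, 0.56 and 0.99, Anpep and Fabp6 were below 0, and Apoa1, Apoa4, Lct, Gata4 and Mttp were below the filter on both arrays. Of the 2 liver markers reaching the filter, Ttr (transthyretin) differed by -1.66, 3.16-fold lower on the Hif-2αΔIE array. Apoh differed by 0.65, at 6.11 on the Hif-2αΔIE array, the filter itself, and 5.46 on the Hif-2αF/F array. It passed only through the array on which it was high, so its direction is not set against that of Ttr. Albumin was below the filter, at 5.25 on the Hif-2αΔIE array and 4.98 on the Hif-2αF/F array. Of the members, Slc5a1 (0.37) and Pklr (0.30) were above the filter on both arrays. Slc2a5 (0.49) and Fbp1 (1.23) passed it only through the Hif-2αΔIE array, so no direction over these members is drawn.

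**Figure D5:**
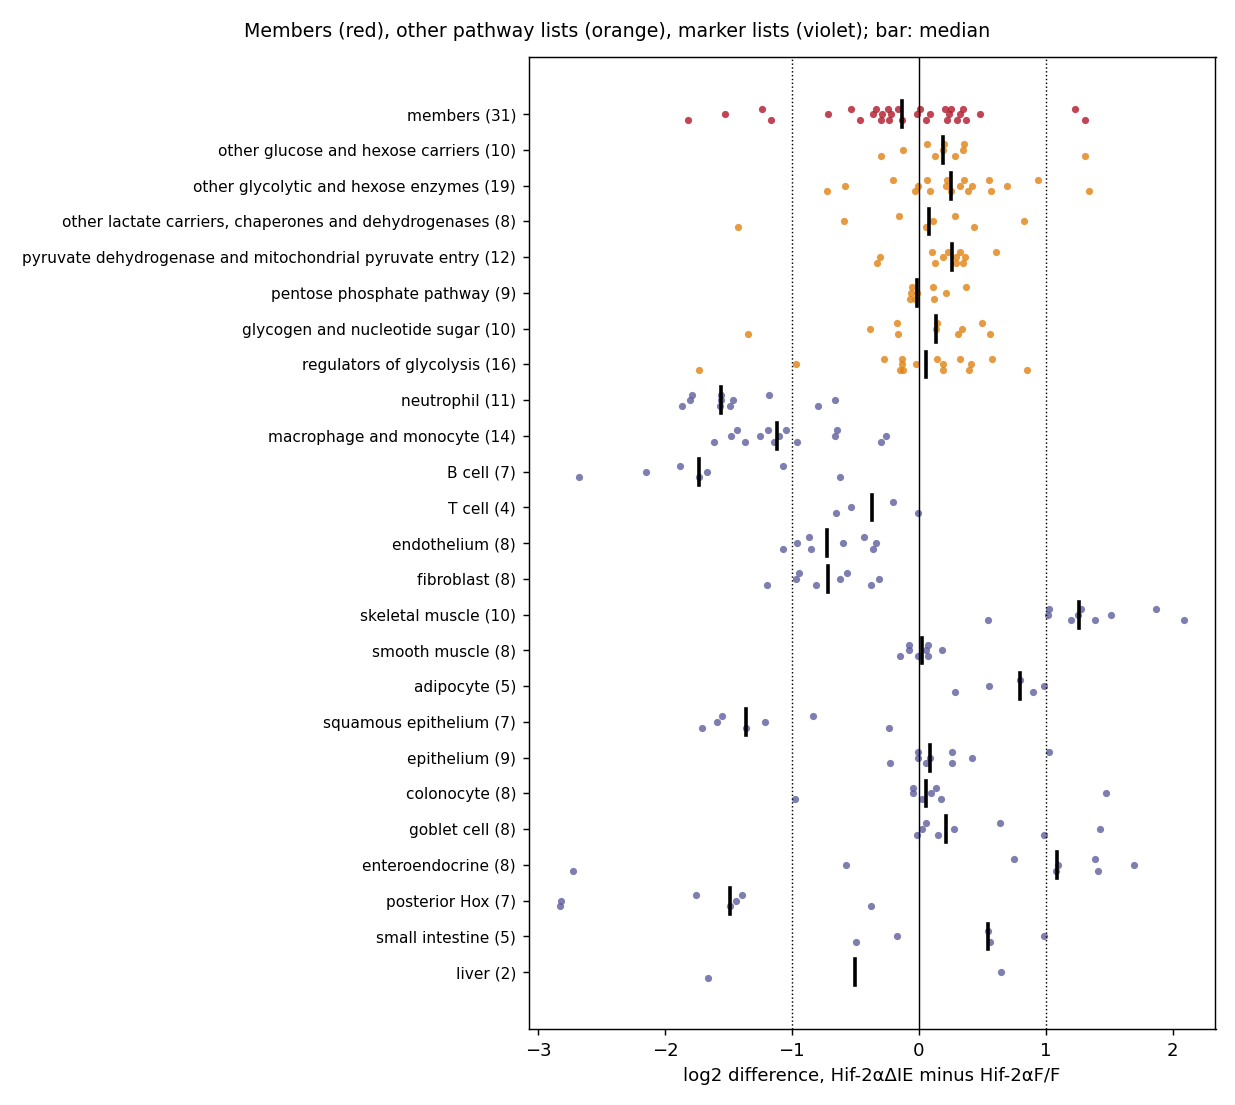
Log2 difference, Hif-2αΔIE minus Hif-2αF/F, of each gene reaching the filter in the members (red), the 7 other pathway lists (orange) and the 17 marker lists (violet), with the number of genes in brackets; black bars are medians and dotted lines 2-fold. The members spread to both sides around -0.14, most pathway lists lie slightly right of 0, neutrophil, macrophage, B cell, squamous and posterior Hox lists lie near or beyond -1, and the skeletal muscle list lies right of 1.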

How the data were processed

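The submitters deposited log2 expression values for 45101 probe sets on 2 arrays, 1 for Hif-2αΔIE and 1 for Hif-2αF/F, made with the affy package and RMA per the submitters' processing notes. Tool versions, filters and which arrays were normalized together were not stated there. Groups came from the genotype label. Gene symbols came from the array's annotation: 34958 probe sets had 1 symbol, 932 several and 9211 none, and only the first were named. Control probe sets were left out except for Gapdh, which had no other. A gene took its brightest probe set and was kept where its higher value reached 6.11. RMA sets the arrays' distributions equal and compresses dim values, so a change of total RNA would not show. Precision is limited by having 1 array per group, and no test was run; differences were counted at 2-fold and set beside the share of all genes. The counting was tested on simulated data. Alternatives were another value per gene, other probe sets, filters, scaling and thresholds. All members are named. From each other pathway list all genes at 2-fold are named, and otherwise at most 4 of largest difference. From each marker list at most 4 of largest difference are named. Fabp6, Pdha1, Pdhb, Bsg, Epas1 and markers below the filter were added for their role. Markers that reached the filter on 1 array only were also named. Proteins of paralogs were not compared here. The members, lists and rules were chosen with earlier results of these data known. Promoter sequences are from RefSeq, build GRCm38.p6. Python 3.11.15, numpy 2.4.6, pandas 2.3.3, statsmodels 0.14.6 and matplotlib 3.10.9 were used.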

Additional observations from a re-analysis of the deposited data

Results flagged for a closer look

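The 4 control probe sets for Cre recombinase lie outside the gene comparison and carried signal on the Hif-2αΔIE array above the level on the Hif-2αF/F array. The CreX 3′ and 5′ probe sets read 9.29 and 7.86 on the Hif-2αΔIE array, against 4.22 and 2.92 on the Hif-2αF/F array. The P1 cre 3′ and 5′ probe sets read 10.01 and 9.67 on the Hif-2αΔIE array, against 3.51 and 3.48 on the Hif-2αF/F array.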

How the results depend on the processing

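No paired analysis was possible because each genotype has 1 array, and no replicate could be left out. The count of members at least 2-fold lower was 4 and became 2 with the mean over all probe sets, 2 with the filter at the 75th percentile and 1 at a threshold of 3-fold; the count of members at least 2-fold higher was 2 and became 0 with the filter at the 75th percentile, with the filter on both arrays and at 3-fold. Over all genes, the count lower was 381 with the filter at the 75th percentile, 1267 at 1.5-fold and 177 at 3-fold, and the count higher was 520 at 1.5-fold and 20 at 3-fold. The member median stayed between -0.19 and -0.07 under every alternative run. Slc2a3 changed sign to 0.15 without probe sets ending in _s_at or _x_at, which leaves only its probe sets below the filter; it was -0.70 with the mean over all probe sets. Pfkfb3 was -0.58 with that mean and 0 with its second brightest probe set. Of 194 member differences recomputed under the alternatives, 190 moved by less than 0.41, the 95% gap between probe sets of a gene. A member with a single probe set, such as Eno3, Slc16a3, Slc16a7 or Fbp1, cannot move when only the choice of probe set changes. Centring shifts every member by the same amount. The count of 190 is therefore no measure of stability. The rest were all in Slc2a3 and Pfkfb3, the only members at 2-fold with more than 1 probe set. Without a filter, the small intestine list median was -0.011 in place of 0.55 and that of the liver list 0.073 in place of -0.50, since genes below the filter enter them. The mean over probe sets reaching the filter was added after seeing the data; it kept 4 members lower and 2 higher. Signal near the filter limits Pfkfb3, Slc16a3, Slc16a7, Fbp1 and Slc2a5.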
